A study of Mus musculus with 18 samples.

Results

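The 6 libraries titled as pregnant were compared with the 6 titled as pseudopregnant, which are 12 of the 18 libraries of the series. The other 6 came from virgin females and entered the model as the third group. All libraries hold RNA of epithelial cells of female mice that were sorted by FACS from the ileum, where the small intestine ends. The groups differ in the labels by mating status alone: Pregnant, Pseudopregnant or Virgin, all on RM1 and RM3 chow. No day of pregnancy, strain, age, hour of collection, sorting marker or batch is labelled, nor how pseudopregnancy was brought about, so a difference in any of these cannot be told apart from the difference between the groups. Whether the replicates are separate animals is not labelled, so p-values measure only how far these samples spread, which may be technical.

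In mice, mating prompts the corpora lutea to persist and to secrete progesterone, with or without embryos. A pseudopregnant female is therefore in a luteal state without a conceptus, and the comparison asks what the presence of embryos adds to that state. The ileal epithelium renews itself from stem cells in crypts, and its absorptive cells mature as they move up the villus, beside goblet, Paneth, enteroendocrine and tuft cells.

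Libraries held 24.9 to 37.3 M (mega) counts, and neither depth nor the mitochondrial share differed detectably between the groups. Pregnant libraries held 31.3 ± 4.75 M counts and pseudopregnant ones 30.9 ± 1.53 M (mean ± SD, n = 6; two-sided exact permutation test, p = 0.846). Genes of the mitochondrial genome took 6.11 ± 1.73% and 7.13 ± 1.26% of the counts (mean ± SD, n = 6; two-sided exact permutation test, p = 0.273, and 0.846 after Benjamini-Hochberg adjustment over 4 library measures). Epithelial markers were abundant. Epcam, an adhesion molecule of epithelia, stood at 1888 to 3234 CPM (counts scaled by TMM to a total of 1 M) in the pregnant and at 1639 to 3589 CPM in the pseudopregnant libraries, and all 11 epithelial markers passed the filter on low counts. Of 19 leukocyte markers 8 passed it. Their summed level, over all 19, was 19.2 to 47.1 CPM in the pregnant and 24.8 to 36.7 CPM in the pseudopregnant libraries. Most of it was Lyz2, whose reads may be shared with its paralog Lyz1. Stromal, vessel, muscle and nerve markers summed to 7.60 to 18 and 8.96 to 15.9 CPM, with Sox10 at 0 in all 12 libraries. Markers of the exocrine pancreas summed to 3.38 to 8.16 and 3.06 to 6.75 CPM, nearly all from Cela1, and 6 of those 10 genes were at 0 throughout. Red blood cell genes stayed at or below 1.45 CPM in sum. In bulk RNA of this kind, fewer cells of a type and less RNA per cell cannot be told apart.

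No gene differed between pregnant and pseudopregnant ileal epithelium after adjustment. In edgeR's quasi-likelihood test 0 of 14675 genes passed an adjusted p of 0.05 (0% called), and the smallest adjusted p was 0.92. At an unadjusted p under 0.05 stood 345 genes (2.35%), below the nominal 5%. Of these, 112 (0.763%) were higher and 233 (1.59%) lower in the pregnant group. DESeq2 and limma-voom also called 0 genes, with 389 and 247 genes at an unadjusted p under 0.05. All fold changes here are log2 values of pregnant over pseudopregnant. Their median over all genes was -0.01, 48.4% were positive and 51.6% negative, and the middle 95% lay between -0.60 and 0.45. For 12459 genes (84.9%) the 95% interval of the difference stayed within 2-fold in either direction, and for 7379 genes (50.3%) within 1.5-fold. The absence of calls therefore does not show that the groups are alike.

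**Figure D1:**
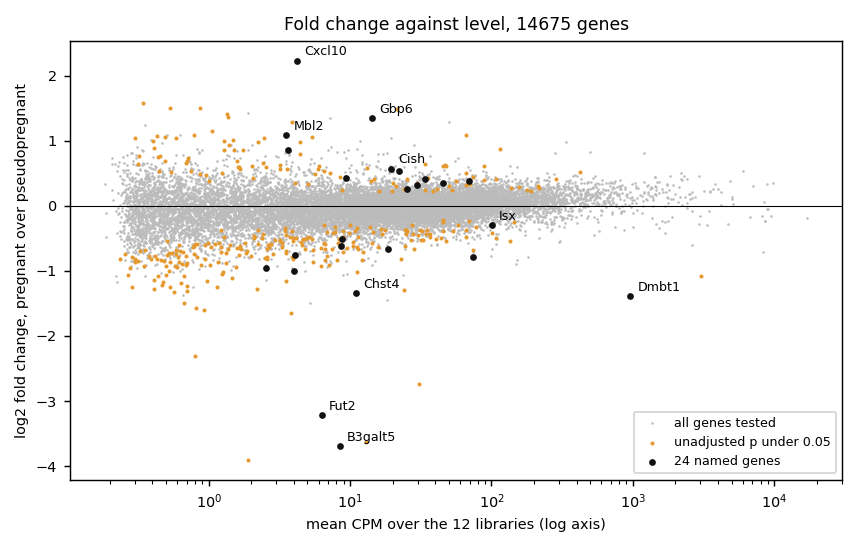
Log2 fold change of pregnant over pseudopregnant (vertical axis) against mean level in CPM over the 12 libraries (horizontal log axis), 1 point per tested gene. The 345 genes at an unadjusted p under 0.05 are orange and the 24 named genes of smallest p (12 in each direction) black. Fut2 (-3.22) and B3galt5 (-3.69) lie far below the other black points, and Cxcl10 (2.23) above them.

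The count of 345 genes depended on single libraries. With pseudopregnant replicate 4 left out it was 120, with pseudopregnant replicate 5 left out 174, with pregnant replicate 3 left out 204 and with pregnant replicate 4 left out 212. Omitting pseudopregnant replicate 6 gave 574 genes, pseudopregnant replicate 3 gave 770, pregnant replicate 6 gave 1004 and pseudopregnant replicate 1 gave 1568. The number called after adjustment was 0 in each of these fits, with 0.448 the smallest adjusted p of any.

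**Figure D2:**
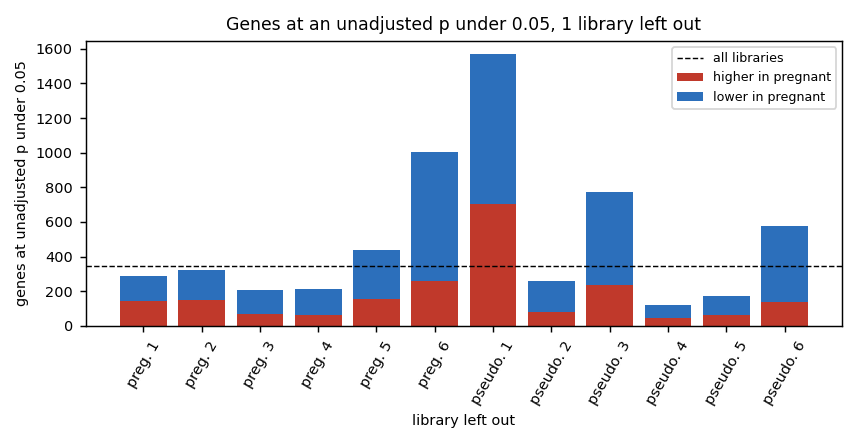
Number of genes at an unadjusted p under 0.05 (vertical axis) when each of the 12 libraries is left out in turn (horizontal axis), in stacked bars for genes higher (red) and lower (blue) in the pregnant group. The dashed line is at 345 for all libraries. The count runs from 120 without pseudopregnant replicate 4 to 1568 without pseudopregnant replicate 1.

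Isx, an intestinal transcription factor that represses genes of carotenoid uptake and cleavage, was the most evenly separated gene of appreciable level. It lies on chromosome 8 from 74873173 to 74893506 (GRCm38, plus strand; ENSMUSG00000031621). In the pregnant libraries it stood at 79.8 CPM (lowest), 88.5 (median) and 103 (highest), and in the pseudopregnant libraries at 105, 111 and 117. Every pregnant library was below every pseudopregnant one. The virgin libraries, at 81.0, 97.5 and 121 CPM, covered both ranges. The log2 fold change was -0.30 (SE 0.10; 95% interval -0.51 to -0.10; edgeR adjusted p = 0.92), and it stayed between -0.34 and -0.27 with any of the 12 libraries left out. Groups failed to overlap for 4 of 14675 genes (0.0273%), all lower in pregnancy. The other three are named because of this and were chosen after their values were seen. Mrgpre, a receptor best known from sensory neurons, ran from 0.138 to 0.444 CPM in the pregnant and from 0.545 to 0.740 CPM in the pseudopregnant group. Reg3d, a lectin-like gene of the Reg family, ran from 0.310 to 0.472 and from 0.508 to 1.2 CPM, and its reads may be shared with its paralogs. Prkch, a protein kinase C, ran from 0.106 to 0.282 and from 0.290 to 0.492 CPM. All 3 are at levels below 2 CPM. Among 14675 genes, separations like these 4 can arise by chance.

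Isx is known to hold back Bco1, which cleaves beta-carotene to retinal, and Scarb1, a receptor that takes up carotenoids and lipids. Bco1 stood at 20.6, 49.4 and 69.5 CPM (lowest, median and highest) in pregnant libraries and at 9.64, 36.5 and 50.9 CPM in pseudopregnant ones. The groups overlapped and the log2 fold change was 0.42 (SE 0.34; 95% interval -0.30 to 1.14). Pseudopregnant replicate 4 held the low value, and without it the fold change was 0.22. Scarb1, named outside the rule, was at 0.437 to 2.80 CPM over the 12 libraries and had a log2 fold change of 0.26 (SE 0.35) and its sign turned when pregnant replicate 6 was left out (-0.12). Dhrs3, which reduces retinal to retinol, was at 44.9 to 82.4 CPM against 28.8 to 53.6 CPM, a log2 fold change of 0.37 (SE 0.18). The low value was again in pseudopregnant replicate 4 (others from 43.9 CPM), and the fold change was 0.26 without pregnant replicate 3. Of 12 tested genes of retinoid and carotenoid handling, 9 had a positive and 3 a negative fold change, with a median of 0.14 beside -0.01 for all genes. The median was 0.05 without pseudopregnant replicate 4, and 0.01 with 7 genes higher when pregnant replicate 3 was left out as well. Isx alone of the 12 was at an unadjusted p under 0.05.

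Among targets of prolactin and growth hormone signalling, 2 feedback inhibitors stood higher in the pregnant group. Both hormones act through STAT5, which switches on Cish and Socs2, and their products dampen the same receptors. Cish was at 14.5, 22.3 and 35.5 CPM (lowest, median and highest) in pregnant libraries and at 11.6, 15.9 and 19.2 CPM in pseudopregnant ones, while virgin libraries ranged from 12.2 to 19.5 CPM. In 5 of 6 pregnant libraries it was above the pseudopregnant median, and the groups overlapped. The log2 fold change of Cish was 0.57 (SE 0.19; 95% interval 0.18 to 0.97; edgeR adjusted p = 0.92), and 0.41 without pregnant replicate 3. Socs2 was at 71.2, 105 and 118 CPM in pregnant and at 62.2, 77.8 and 87.8 CPM in pseudopregnant libraries, with a log2 fold change of 0.40 (SE 0.16). Again only the lowest pregnant library lay below the pseudopregnant median. Bcl6, a transcriptional repressor that STAT5 is known to reduce in several cell types, was at 1.52, 3.59 and 8.64 CPM against 5.28, 6.44 and 13.6 CPM. Its log2 fold change was -0.92 (SE 0.37), or -0.71 without pseudopregnant replicate 4. The whole list of 12 tested genes was not shifted in this way: 5 were higher and 7 lower, with a median of -0.11.

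The receptors for the hormones of pregnancy gave no adjusted call. Prlr, the prolactin receptor, was at 125 to 189 CPM in pregnant and at 134 to 185 CPM in pseudopregnant libraries. Its log2 fold change of -0.04 had a 95% interval of -0.30 to 0.22, which excludes a 1.5-fold difference in either direction. Ghr, the growth hormone receptor, named outside the rule, had a log2 fold change of 0.08 (SE 0.26). Pgr, the progesterone receptor, was scarce in all 3 groups, at 0.0363 to 0.590 CPM in the 12 libraries, and its interval of -1.12 to 1.05 leaves a 2-fold difference possible in both directions. Esr1, the estrogen receptor alpha, was also scarce. It stood at 0.413, 0.600 and 1.18 CPM in pregnant and at 0.0579, 0.241 and 0.675 CPM in pseudopregnant libraries, a log2 fold change of 1.06 (SE 0.41; 95% interval 0.21 to 1.92). Pseudopregnant replicates 1 and 5 were within the pregnant range. Igf1r, the receptor of insulin-like growth factor 1, was at 5.77 to 10.8 against 7.99 to 20.1 CPM, a log2 fold change of -0.56 (SE 0.26), or -0.37 without pseudopregnant replicate 5. Of 18 tested hormone receptors 8 were higher and 10 lower, with a median of -0.02.

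**Figure D3:**
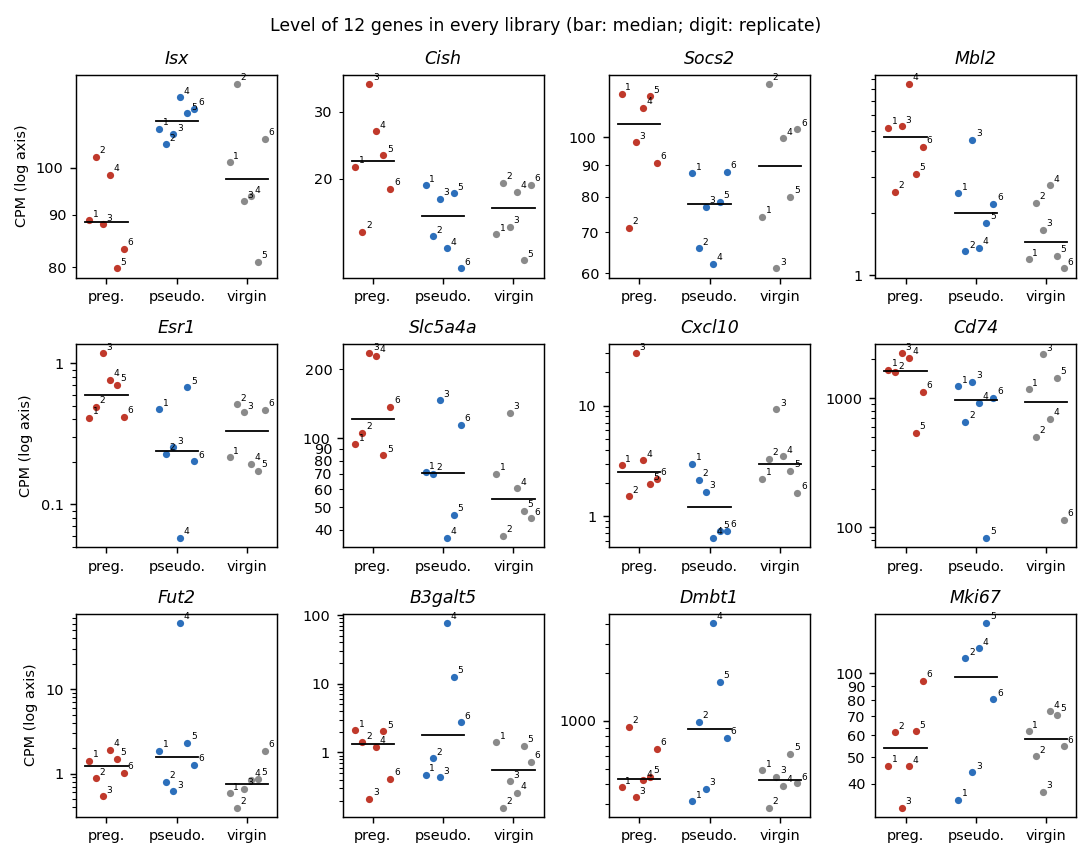
Level in CPM (vertical log axis) of 12 genes in every pregnant, pseudopregnant and virgin library, 1 dot per library with its replicate number and a bar at the group median. Isx separates the pregnant from the pseudopregnant libraries (at most 103 against at least 105 CPM), while Fut2 (61.3 CPM) and B3galt5 (77.2 CPM) are carried by pseudopregnant replicate 4 and Cxcl10 (29.8 CPM) by pregnant replicate 3.

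All 8 genes of antigen presentation by MHC class II had a positive fold change, from 0.59 to 0.99, with a median of 0.80 beside -0.01 for all genes. Ileal enterocytes carry class II molecules, which show peptides to helper T cells. None of the 8 was at an unadjusted p under 0.05. Cd74, the chaperone of class II molecules, was at 542, 1618 and 2227 CPM (lowest, median and highest) in pregnant and at 82.9, 967 and 1333 CPM in pseudopregnant libraries. Pseudopregnant replicate 5 was far below the others, whose lowest was 659 CPM, and virgin libraries ran from 115 to 2191 CPM. The log2 fold change of Cd74 was 0.81 (SE 0.56; 95% interval -0.37 to 1.98). H2-Aa and H2-Ab1, the chains of the class II molecule I-A, and H2-DMa, which loads its peptides, had fold changes of 0.99, 0.83 and 0.69, and all 3 were also lowest in pseudopregnant replicate 5. Without that library the list's median was 0.57. The mean log2 level of the 8 class II genes was lowest in replicate 5 and highest in replicate 3 of both groups. Reads of these genes may be shared among similar H2 genes. Ptprc, which marks all leukocytes, was at 0.198 to 0.638 CPM in pregnant and at 0.254 to 0.598 CPM in pseudopregnant libraries. The mean log2 level of the 8 tested leukocyte markers was highest in pregnant replicate 1, and that of the class II genes in pregnant replicate 3. Both were lowest in replicate 5 of each group. Relative to the mean over the 12 libraries, leukocyte markers stood there at -0.52 (pregnant) and -0.53 (pseudopregnant). Class II genes stood there at -0.96 and -3.18. The part of leukocytes in the class II difference was not tested.

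MHC class I and its peptide supply leaned the same way, with 15 of 16 tested genes higher, a median of 0.35 and 0 genes at an unadjusted p under 0.05. The median was 0.24 without pseudopregnant replicate 5 and 0.52 without pseudopregnant replicate 1. Psmb9 and Psmb8, catalytic subunits of the immunoproteasome that cuts peptides for class I, had log2 fold changes of 0.60 (SE 0.30) and 0.62 (SE 0.32). Without pregnant replicate 1 these were 0.38 and 0.42. Psmb9 stood at 45.9, 81.6 and 143 CPM in pregnant and at 22.5, 54.2 and 86.3 CPM in pseudopregnant libraries, which overlap.

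Interferon response genes were higher in the pregnant group for 31 of 33 tested members, with a median of 0.25 and 4 members at an unadjusted p under 0.05. The size of this difference rested on 2 libraries: the median was 0.11 without pregnant replicate 3 and 0.60 without pseudopregnant replicate 1. Cxcl10, a chemokine that draws T cells and is induced by interferon, was at 1.52, 2.54 and 29.8 CPM in pregnant and at 0.637, 1.21 and 2.98 CPM in pseudopregnant libraries. The value of 29.8 CPM belonged to pregnant replicate 3, and the other 5 pregnant libraries were at or below 3.21 CPM. The log2 fold change of Cxcl10 was 2.23 (SE 0.71) with that library and 0.68 without it. Gbp6, a GTPase of cell defence whose reads may be shared with other Gbp genes, was at 8.52, 14.2 and 48.3 CPM against 3.88, 7.39 and 12.8 CPM, a log2 fold change of 1.35 (SE 0.51), or 0.90 without the same library. Gbp7 (1.05, SE 0.46, or 0.61 without that library) and Ifi47 (0.60, SE 0.27) completed the 4, and Ifi47 was named after its value was seen. Mx1, an antiviral GTPase that is not on this list but is named for its p, stood lower in the pregnant group, at 1.83 to 3.49 CPM against 2.79 to 12.7 CPM. Its fold change was -1.0 (SE 0.36) and -0.52 without pseudopregnant replicate 4.

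The stretch before the start of Cxcl10 and that of B3galt5, the gene with the largest difference among those named, are shown because each holds a match to a motif of the pathways above. The motifs searched on both strands were GAAANNGAA, a short form of the element that interferon-activated factors bind, and TTCNNNGAA, the form that STAT factors bind. Both stretches are the 250 bases before the start, from RefSeq on GRCm38.p6, read 5′ to 3′ on the gene's strand, with the match in capitals. Cxcl10 lies at chr5:92348890-92349139 (minus strand), with its match beginning 213 bases before the start. B3galt5 lies at chr16:96235551-96235800 (plus strand, 1 of 3 starts listed), with its match beginning 10 bases before the start.
Cxcl10: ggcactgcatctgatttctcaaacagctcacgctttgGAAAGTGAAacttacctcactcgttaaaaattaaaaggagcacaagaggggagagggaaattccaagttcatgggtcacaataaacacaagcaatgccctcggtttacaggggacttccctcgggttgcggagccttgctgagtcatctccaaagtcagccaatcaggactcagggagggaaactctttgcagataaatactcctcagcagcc
B3galt5: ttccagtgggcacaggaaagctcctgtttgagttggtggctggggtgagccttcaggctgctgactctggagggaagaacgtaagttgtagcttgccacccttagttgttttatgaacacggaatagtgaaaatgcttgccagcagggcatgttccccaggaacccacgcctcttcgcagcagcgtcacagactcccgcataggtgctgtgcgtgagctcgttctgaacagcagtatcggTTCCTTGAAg
GAAANNGAA occurred in 2342 of 32851 promoters of this length (7.13%), and among the named genes in Cxcl10, Rab19 and Jak3. TTCNNNGAA occurred in 2306 (7.02%), and among the named genes in Rab19 and B3galt5. Promoters were found for 10 of the 12 named genes higher in pregnancy and 7 of the 12 lower. A match describes these letters and no binding was measured.

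The largest differences among all named genes were in inducible defence of the epithelium, and most came from pseudopregnant replicate 4. Of 23 tested genes, 10 were higher and 13 lower in the pregnant group, 2 and 7 of them at an unadjusted p under 0.05, and the median was -0.14, or -0.03 without that library. Fut2, the fucosyltransferase that puts fucose on the epithelial surface, was at 0.535, 1.22 and 1.91 CPM in pregnant libraries and at 0.617, 1.57 and 61.3 CPM in pseudopregnant ones. Its log2 fold change was -3.22 (SE 0.95) with pseudopregnant replicate 4 and -0.17 without it. B3galt5, a galactosyltransferase that builds the sugar chains on which such fucose is placed, was at 0.214, 1.31 and 2.11 CPM against 0.436, 1.79 and 77.2 CPM. Here pseudopregnant replicate 5 was raised as well, at 12.7 CPM, and the fold change of -3.69 (SE 1.05) became -1.52 without replicate 4. Both ranges overlapped widely below 3 CPM.

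The same library was highest for other genes, most of them of defence. Dmbt1, a secreted scavenger protein that binds bacteria, was at 333, 435 and 919 CPM in pregnant and at 314, 883 and 4089 CPM in pseudopregnant libraries, with a log2 fold change of -1.39 (SE 0.47), or -0.67 without replicate 4. Reg3g, a lectin that kills Gram-positive bacteria, reached 11147 CPM there, beside 968 to 4888 CPM in the other pseudopregnant and 934 to 2661 CPM in the pregnant libraries. Its fold change of -1.08 (SE 0.44) became -0.48 without it, and reads may be shared with Reg3b. Slc6a14 (-2.31 and -0.81 without that library), an amino acid transporter, Saa1 (-2.73 and -0.95), an acute-phase apolipoprotein, Pla2g5 (-1.65 and -0.41), a secreted phospholipase, and Duox2 (-0.79 and -0.13), the oxidase that makes hydrogen peroxide at the surface, showed the same. Saa1, Pla2g5, Reg3g and Duox2 were named after their values were seen. Mbl2, a lectin that opens the complement cascade, stood the other way. It was at 2.54, 4.69 and 8.50 CPM in pregnant and at 1.31, 2.01 and 4.54 CPM in pseudopregnant libraries, and all 6 pregnant libraries were above the pseudopregnant median. The log2 fold change of Mbl2 was 1.08 (SE 0.33; 95% interval 0.39 to 1.77; edgeR adjusted p = 0.92), and between 0.83 and 1.39 with any library left out.

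The other genes of smallest p that were lower in the pregnant group differed in how far they moved with any one library. Tgfbr2, a receptor of TGF-beta, was at 5.41 to 8.98 CPM in pregnant and at 7.44 to 14.3 CPM in pseudopregnant libraries (log2 fold change -0.51, SE 0.17). Parm1, a mucin-like membrane protein, was at 4.39 to 9.19 against 7.19 to 15.8 CPM (-0.62, SE 0.21). Fam83c was at 1.10 to 2.19 against 1.52 to 5.37 CPM (-0.95, SE 0.29), and Slc28a3, a transporter of nucleosides, at 12.3 to 18 against 10.9 to 37.2 CPM (-0.66, SE 0.24). For Tgfbr2 and Parm1 all 6 pseudopregnant libraries were above the pregnant median, though the groups overlapped. Tgfbr2, Parm1 and Slc28a3 were highest in pseudopregnant replicate 4, and without it their fold changes were -0.40, -0.46 and -0.47. That of Fam83c was -0.76 without pseudopregnant replicate 5. Chst4, a sulfotransferase, reached 55.8 CPM and Jak3, a cytokine-receptor kinase, 11.2 CPM in pseudopregnant replicate 4. Their fold changes of -1.35 and -0.76 became -0.33 and -0.38 without it. Atp10b, a lipid flippase, had -0.79, or -0.52 without the same library.

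Of those higher in the pregnant group, most differed by less than 1.5-fold. Naaa, which breaks down N-acylethanolamines, was at 37.0, 53.5 and 59 CPM in pregnant and at 31.6, 40.2 and 46.1 CPM in pseudopregnant libraries (log2 fold change 0.35, SE 0.13). Got1, the cytosolic aspartate aminotransferase, was at 59.4 to 94.6 against 43.8 to 73.0 CPM (0.38, SE 0.14), and Auh, an enzyme of leucine breakdown, at 27.9 to 36.9 against 18.9 to 31.4 CPM (0.32, SE 0.12). Rab19, a small GTPase of membrane traffic, had 0.53 (SE 0.20), Fbxl6, an F-box protein, 0.41 (SE 0.14), Cdkn2aip, a regulator of p53, 0.26 (SE 0.09) and Chac2, which degrades glutathione, 0.42 (SE 0.17). Plk5, a polo-like kinase lacking a full kinase domain, had 0.86 (SE 0.30). All of these groups overlapped.

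Genes of nutrient absorption were mostly higher by a small amount in the pregnant group, without a call. Of 20 tested genes of sugar transport and fructose handling 16 were higher, with a median of 0.18 beside -0.01 for all genes, or 0.09 without pregnant replicate 6. Slc5a4a, a relative of the sodium-glucose transporters (chromosome 10 from 76147451 to 76189265, GRCm38, plus strand), was at 84.4, 121 and 235 CPM in pregnant and at 36.8, 70.7 and 147 CPM in pseudopregnant libraries. Pregnant replicates 3 and 4 were above every pseudopregnant library and the rest overlapped. Its log2 fold change was 0.87 (SE 0.36; 95% interval 0.12 to 1.61), between 0.69 and 1.12 with any library left out. The lowest value over all alternatives was 0.535. Its neighbour and close paralog Slc5a4b, with which it may share reads, was at 93.8 to 310 against 43.8 to 189 CPM, a log2 fold change of 0.59 (SE 0.37), or 0.38 without pregnant replicate 3. Slc5a1, which takes up glucose and galactose, had 0.17 (SE 0.20; 95% interval -0.26 to 0.59), and Slc2a5, the fructose transporter, 0.40 (SE 0.24). Hk2, a hexokinase, was lower at -0.66 (SE 0.31), with 88.1 CPM in pseudopregnant replicate 4 and a fold change of -0.14 without it.

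Brush border enzymes and scaffold proteins were higher for 22 of 24 tested genes (median 0.19) and genes of fat uptake and chylomicron assembly for 22 of 25 (median 0.20), with 0 genes of either list at an unadjusted p under 0.05. Without pregnant replicate 3 the medians were 0.09 and 0.11, and without both that library and pseudopregnant replicate 4 they were 0.04 (17 of 24 higher) and 0.06 (16 of 25 higher). Treh, the brush border enzyme that splits trehalose, was at 136 to 281 CPM in pregnant and at 87.1 to 225 CPM in pseudopregnant libraries (log2 fold change 0.39, SE 0.30). Plin2, the coat protein of lipid droplets, was at 81.1, 93.7 and 107 CPM against 40.6, 80.4 and 88.1 CPM (0.32, SE 0.16), or 0.20 without pseudopregnant replicate 4. Amino acid and peptide transport had 13 of 21 genes higher and a median of 0.06, and the villus tip program 9 of 12 higher and a median of 0.07. Both medians were -0.02 without pregnant replicate 3. Bile acid uptake genes, 7 of 9 higher with a median of 0.19, included Fgf15, the hormone that reports bile acid uptake to the liver, at 36.0 to 173 against 10.5 to 92.0 CPM (0.54, SE 0.50). The 95% interval of Fgf15 was -0.50 to 1.58, and its fold change was 0.20 without pregnant replicate 3 and 0.06 when pseudopregnant replicate 4 was left out as well. The list's median was 0.05 without pseudopregnant replicate 2 and 0.49 without pseudopregnant replicate 1. Cholesterol synthesis was balanced at 12 higher and 11 lower, although Insig1, which holds back that pathway, was at 59.1 to 70.1 against 59.9 to 93.6 CPM (-0.24, SE 0.10).

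Proliferation genes leaned the other way. Of 34 tested genes of the cell cycle and DNA replication 31 were lower in the pregnant group, with a median of -0.23, as were 18 of 20 stem cell and Wnt target genes (median -0.27) and 25 of 30 genes of ribosome biogenesis (median -0.19). These medians moved with single libraries: the cell cycle median was -0.12 without pregnant replicate 3, the stem cell median -0.11 without pseudopregnant replicate 5 and the ribosome biogenesis median -0.12 without pseudopregnant replicate 6. With pregnant replicate 3 and pseudopregnant replicate 4 both left out, the cell cycle median was -0.02, with 15 genes higher and 19 lower. In the 3 lists together 1 gene was at an unadjusted p under 0.05. That gene, Mki67, a marker of cycling cells, was at 32.9, 53.9 and 93.9 CPM in pregnant and at 35.1, 96.9 and 152 CPM in pseudopregnant libraries, a log2 fold change of -0.68 (SE 0.31). Pseudopregnant replicates 2, 4 and 5 were above every pregnant library, while replicates 1 and 3 were below the pregnant median. The same replicates 2, 4 and 5 had slopes of expression on transcript length of 0.19, 0.20 and 0.26, above the pregnant maximum of 0.16. With each library's slope as a covariate the medians of the 3 lists, in the order above, were -0.18, -0.13 and -0.21. The part of transcript length in the Mki67 difference was not tested. Lgr5, the marker of crypt stem cells, had -0.38 (SE 0.35), or -0.10 without pseudopregnant replicate 5. Axin2, a feedback gene of Wnt signalling, had -0.35 (SE 0.20), or -0.22 without pregnant replicate 1.

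The balance of villus to crypt RNA varied within both groups. The brush border mean minus the cell cycle mean, in log2 units, ran from -0.40 to 1.44 in the pregnant and from -0.62 to 0.92 in the pseudopregnant libraries, highest in replicate 3 of each. Slc5a4a was also highest in replicate 3 of each group, and next in pregnant replicate 4, where the balance was 0.84. With this balance as a covariate the median of the cell cycle list was 0.01, that of the stem cell list -0.10, that of ribosome biogenesis -0.05, that of sugar transport 0.03, that of fat uptake 0.08 and that of the brush border 0.05. The balance is built from 2 of these lists, so for the brush border and the cell cycle these values are no check. The medians of MHC class II and class I genes with the same covariate were 0.55 and 0.22, and that of the interferon list 0.11.

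**Figure D4:**
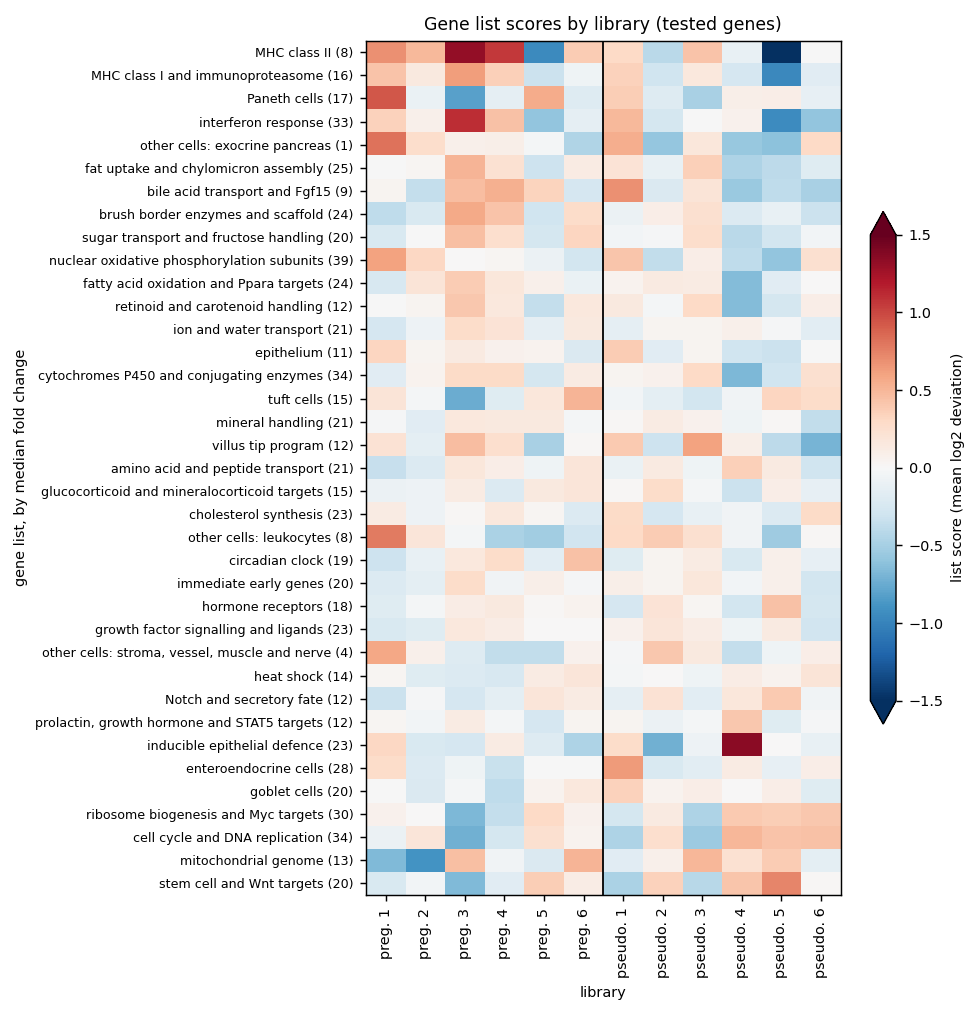
Heat map of the score of each gene list (lists down the vertical axis, with their tested genes) in every library (horizontal axis). Colour gives the mean of the members' log2 CPM minus each gene's mean over the 12 libraries, and scores beyond 1.5 in size take the end colour. The MHC class II score of pseudopregnant replicate 5 (-3.18) and the defence score of pseudopregnant replicate 4 (1.35) stand apart.

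Nuclear and mitochondrial genes of respiration had fold changes of opposite sign. Of 39 nuclear subunits of oxidative phosphorylation 36 were higher in the pregnant group (median 0.18), and of 13 genes of the mitochondrial genome 12 were lower (median -0.23), with 0 genes of either at an unadjusted p under 0.05. The nuclear median was 0.06 without pregnant replicate 1 and 0.33 without pseudopregnant replicate 1. It was 0.05 with each library's slope of expression on transcript length as a covariate, a slope that ran from -0.24 to 0.16 in the pregnant and from -0.165 to 0.26 in the pseudopregnant libraries. The mitochondrial median was -0.08 without pregnant replicate 2. Fatty acid oxidation was higher for 22 of 24 genes (median 0.15), which became a median of 0.08 without pregnant replicate 3 and of 0.0002 with 12 of 24 higher when pseudopregnant replicate 4 was left out with it, a pair chosen after seeing the data. Cpt2, an enzyme of fatty acid entry into mitochondria, was at 134, 149 and 169 CPM against 103, 127 and 140 CPM (log2 fold change 0.27, SE 0.11). Ppara, the receptor that drives this program, stood lower, at 9.17, 11.6 and 19.2 CPM against 11.4, 14.9 and 32.0 CPM (-0.63, SE 0.25). Pseudopregnant replicates 2 and 5 were at 30.0 and 32.0 CPM and the rest of that group at or below 15.6 CPM, within the pregnant range. Without pseudopregnant replicate 5 the fold change of Ppara was -0.42.

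Of the secretory lineages, enteroendocrine and goblet genes were mostly lower and Paneth genes mostly higher in the pregnant group, by small medians. Rfx6, a transcription factor of enteroendocrine cells, was at 0.392, 0.499 and 1.17 CPM in pregnant and at 0.472, 1.39 and 1.83 CPM in pseudopregnant libraries. In 5 of 6 pregnant libraries it was at or below 0.563 CPM, and in 5 of 6 pseudopregnant libraries at or above 1.21 CPM. The log2 fold change of Rfx6 was -1.15 (SE 0.30; 95% interval -1.78 to -0.52; edgeR adjusted p = 0.92). The other enteroendocrine genes differed less. The list had 21 of 28 genes lower and a median of -0.15, or -0.04 without pseudopregnant replicate 1, with Chgb, a granule protein, at -0.38 (SE 0.22). Goblet genes were lower for 15 of 20 (median -0.17, or -0.11 without pregnant replicate 4), Muc2, the gel-forming mucin, among them at -0.39 (SE 0.29). Paneth genes were higher for 12 of 17 (median 0.28), a median that was 0.02 without pregnant replicate 1 and turned to -0.05, with 5 higher and 12 lower, with the length slope as a covariate. Defa3, an alpha-defensin that may share reads with its many copies, was at 981 to 5955 against 1424 to 2830 CPM. Notch and secretory fate genes were lower for 9 of 12 (median -0.10), with Notch2, a receptor of that pathway, at -0.66 (SE 0.30), or -0.39 without pseudopregnant replicate 5. Tuft cell genes were split, with 9 of 15 higher.

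Clock genes went both ways, without a call. Nr1d2, a repressor of the circadian clock, was at 32.7, 37.3 and 61.3 CPM in pregnant and at 21.7, 29.0 and 44.3 CPM in pseudopregnant libraries (log2 fold change 0.43, SE 0.18), Dbp, a factor at its output, at 5.03, 11.8 and 24.4 against 1.56, 6.25 and 13.6 CPM (0.86, SE 0.43), and Arntl, the activator in opposite phase, at 20.9, 24.8 and 30.1 against 25.2, 29.5 and 40.1 CPM (-0.30, SE 0.15). Of 19 tested clock genes 10 were higher and 9 lower, with a median of 0.01. Without pregnant replicate 4 the fold changes of Nr1d2 and Dbp were 0.28 and 0.55. The hour of collection is not labelled, and its part was not tested.

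Of 669 tested genes on the 38 lists, 31 (4.63%) were at an unadjusted p under 0.05, beside 2.35% of all genes. The lists were chosen with earlier results of these data known, so the higher share is no evidence of a difference. Detoxifying cytochromes P450 and conjugating enzymes were higher for 22 of 34 genes (median 0.10), with Cyp3a44, which has close paralogs, at 0.98 (SE 0.43), or 0.64 without pregnant replicate 4. Mineral handling was higher for 14 of 21 (median 0.07), with Slc31a1, the copper importer, at 305 to 852 against 293 to 404 CPM (0.52, SE 0.23, or 0.29 without pregnant replicate 4). Ion and water transport was higher for 12 of 21 (median 0.11), with Car2, a carbonic anhydrase, at 0.78 (SE 0.39), or 0.44 without pregnant replicate 3. Glucocorticoid and mineralocorticoid targets were higher for 9 of 15 (median 0.05) and immediate early genes for 10 of 20 (median -0.005). Heat shock genes were lower for 11 of 14 (median -0.10) and growth factor genes for 13 of 23 (median -0.07). With 1 library left out, the medians of mineral handling, detoxifying enzymes, steroid targets, immediate early genes and growth factor genes each took the other sign at least once. Gm42427, an unnamed gene, was at 24.5 to 53.8 against 15.4 to 56.3 CPM, a log2 fold change of 0.20 (SE 0.26).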

How the data were processed

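Each library's deposited table holds the authors' raw counts of reads for Ensembl genes, not normalized. The submitters' processing notes name the build GRCm38, HISAT2 2.0.4, Subread 2.0.0 with featureCounts, FastQC 0.11.5 and DESeq2 1.24.0. The annotation release and strand setting were not given in the sources used here. Close paralogs, overlapping and antisense genes may therefore share reads. GENCODE M21 gave symbols for 47310 of 47729 genes, and the other 419 took no more than 0.029% of the counts of any library. Within a group, any pair of replicates differed beyond sampling noise (at least 35.5 for chi-square over its degrees of freedom), so none was counted as a duplicate.

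Groups came from the titles. edgeR 4.0.16 (R 4.3.3) filtered genes with filterByExpr, scaled libraries by TMM and fitted a quasi-likelihood model (legacy = FALSE) with 1 mean per group to all 18 libraries. The two-sided contrast was adjusted by Benjamini-Hochberg over 14675 genes at a threshold of 0.05. The procedure was tested on simulated data. Library measures were compared by exact permutation tests. Levels are TMM-scaled CPM, n = 6 per group, and log2 scores used a prior count of 2. As no gene passed, the 12 genes of smallest p in each direction were named, with a mean of at least 2 CPM and no predicted genes, then the 3 of smallest p from each list (not all are printed) and 18 genes fixed by name. The members and lists were chosen with earlier results of these data known. Lists are described by counts and medians, without a test.

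Alternatives were other scalings (DESeq2 size factors, upper quartile) and filters, DESeq2 1.42.0, limma-voom (limma 3.58.1), robust dispersions, only the 12 libraries, no mitochondrial genes, a replicate block, 2 covariates and each library left out. Leaving out pregnant replicate 3 with pseudopregnant replicate 4 was chosen after seeing the data.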

Additional observations from a re-analysis of the deposited data

Results flagged for a closer look

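For each library at the end of its group, the gap to the nearest of the other 5 was taken as a share of the group's range. The library was marked where this share exceeded Dixon's 95% critical value for 6 samples. Genes were taken on the log2 CPM scale and library measures on their own scale. Chance marks about 1 in 20 groups, and 23 of the 258 pairs of a gene or library measure with a group were marked.

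Among pseudopregnant libraries, replicate 4 stood above the others for Fut2 at 61.3 CPM (others 0.617 to 2.31), Chst4 at 55.8 CPM and Jak3 at 11.2 CPM. The same library stood below the others for Sgk1, a kinase of sodium handling, at 100.2 CPM (others 245 to 338), Bco1 at 9.64 CPM, Plin2 at 40.6 CPM, Dhrs3 at 28.8 CPM and Ltc4s, an enzyme of leukotriene synthesis in tuft cells, at 1.01 CPM. Pseudopregnant replicate 5 stood below the others for 4 genes of MHC class II: Cd74 at 82.9 CPM (others 659 to 1333), H2-Ab1 at 37.3 CPM, H2-Aa at 13.4 CPM and H2-DMa at 8.83 CPM. Prlr was lowest in pseudopregnant replicate 6 at 134 CPM (others 166 to 185), and Rfx6 in pseudopregnant replicate 3 at 0.472 CPM.

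Among pregnant libraries, replicate 3 stood above the others for Cxcl10 at 29.8 CPM and below them for Duox2 at 86.4 CPM. Replicate 6 stood above the others for Atp10b at 87.6 CPM, Egfr, the receptor of epidermal growth factor, at 19.2 CPM and Rfx6 at 1.17 CPM. Replicate 1 was lowest for Axin2 at 30.9 CPM, Rnf43, an inhibitor of Wnt signalling, at 12.8 CPM and Gm42427 at 24.5 CPM. Nos2, the inducible nitric oxide synthase, named outside the rule, was lowest in replicate 2 at 23.5 CPM (others 80.9 to 161).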

How the results depend on the processing

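No gene was called under any of the 26 alternatives run, and 0 of 3110 single-gene values in 125 genes passed the threshold. The count at an unadjusted p under 0.05 (345) was 844 with no low-count filter, 83 without the pair of pregnant replicate 3 and pseudopregnant replicate 4 (chosen after seeing the data) and 120 to 1568 with 1 library left out, and 247 to 429 otherwise. The block on replicate numbers gave 618. Same-numbered libraries correlated at 0.658, 0.407 and 0.32 for replicates 1, 3 and 5, which matched their own number best, and from -0.462 to 0.061 for the others. The numbers were therefore not treated as pairs, and whether some share an origin is not given in the labels. The cause of these moves was not tested.

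Signs turned in 17 of the 3110 values, in 5 genes. Pgr was 0.00325 with DESeq2, 0.29 with limma-voom, 0.11 and 0.14 with the villus and length covariates, and -0.24 to 0.45 with 1 library left out. Prlr ran from -0.0938 to 0.0285, Ghr from -0.0671 to 0.26, Scarb1 from -0.12 to 0.42 and Duoxa2 from -0.66 to 0.34 with 1 library left out. Without the pair, Ghr was -0.16 and Duoxa2 0.48. With 1 library left out, the difference of pregnant minus pseudopregnant means ran from -0.792 to 1.68 M in total counts, from -0.105 to 0.5535 percentage points in the share of ribosomal protein genes and from -0.985 to 0.4425 points in that of the 50 most abundant genes.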
